A study of Mus musculus with 16 samples.

Results

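The Cyp4a genes of the mouse encode cytochromes P450 that hydroxylate fatty acids at the omega (terminal) carbon, and 6 of them were followed in the liver of mice on 2 diets in the fed and fasted state. The members, Cyp4a10, Cyp4a12a, Cyp4a12b, Cyp4a14, Cyp4a31 and Cyp4a32, were taken by gene symbol from the 46078 Ensembl genes of the count table, 1 row each. RNA-seq of polyadenylated liver RNA covered 16 male mice, 1 library per mouse, in 4 groups of 4. All mice were of the strain given as C56B6/J in the labels (C57BL6/J in the authors' methods) and started their diets as young adults. The CD fed group ate a control diet for 16 weeks and was sampled while feeding freely, and the CD fast group ate the same diet for 16 weeks and was then fasted for 16 h. The HFD fed and HFD fast groups were kept in the same feeding states after 16 weeks on a high-fat diet, which induces obesity. The study asked how the liver responds to fasting and to diet.

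CYP4A enzymes sit in the endoplasmic reticulum and receive electrons from cytochrome P450 reductase. The hydroxylated fatty acid is oxidized further by alcohol and aldehyde dehydrogenases to a dicarboxylic acid, which is shortened in peroxisomes. Cyp4a10 and Cyp4a14 are textbook targets of PPARalpha, the nuclear receptor that senses fatty acids in fasted hepatocytes, whereas hepatic Cyp4a12a is known for higher expression in males, set by growth hormone and androgens.

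The genes form 1 array on mouse chromosome 4 (GRCm38), within 322.6 kb at chr4:115299046-115621602. In chromosomal order these are Cyp4a12a (ENSMUSG00000066071, chr4:115299046-115332815), Cyp4a12b (ENSMUSG00000078597, chr4:115411624-115439034), Cyp4a14 (ENSMUSG00000028715, chr4:115486200-115496142), Cyp4a10 (ENSMUSG00000066072, chr4:115518264-115533649), Cyp4a31 (ENSMUSG00000028712, chr4:115563649-115579015) and Cyp4a32 (ENSMUSG00000063929, chr4:115600969-115621602). Cyp4a14 lies on the minus strand and the other 5 on the plus strand. The array also holds Cyp4a30b and the pseudogene Cyp4a30-ps, each with 1 count over all 16 libraries, and a processed pseudogene inside Cyp4a12b, Gm12837, had 0. Cyp4a29, just before the array, had 1 count over the 16 libraries, and Cyp4b1 follows Cyp4a32.

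These genes are close copies, so reads could be shared between them. The coding sequences of Cyp4a10 and Cyp4a32 were 97.2% identical, those of Cyp4a10 and Cyp4a31 96.6%, and those of Cyp4a31 and Cyp4a32 96.0%. Cyp4a12a and Cyp4a12b were 98.5% identical and differed at 23 coding positions. Cyp4a14 stood apart, with 74.8% to 75.8% identity to the other 5. Over 100-base windows, the length of a read, 35.8% of the Cyp4a12a transcript occurred unchanged in Cyp4a12b, and 36.2% the other way. The shared part was 20.1% for Cyp4a32, 12.7% for Cyp4a10 and 8.22% for Cyp4a31, all within that group of 3, and 0% for Cyp4a14. How reads that fit several genes were counted is not given in the sources used here, so levels of Cyp4a10, Cyp4a31, Cyp4a32, Cyp4a12a and Cyp4a12b taken singly are uncertain, and tests of sums over copies are given with the results.

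The stretches below show how far a read can tell the copies apart, each taken where the copies differ most within 1 exon (coding strand, 5′ to 3′, GENCODE transcripts of GRCm38). For Cyp4a10, Cyp4a31 and Cyp4a32 it is coding bases 190 to 289 in exon 2, at chr4:115519630-115519729, chr4:115565010-115565109 and chr4:115602260-115602359 on the plus strand, and capitals mark the 13 positions at which the 3 genes are not all alike.
Cyp4a10: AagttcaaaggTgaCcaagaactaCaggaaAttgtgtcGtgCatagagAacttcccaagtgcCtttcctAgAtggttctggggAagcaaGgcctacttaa
Cyp4a31: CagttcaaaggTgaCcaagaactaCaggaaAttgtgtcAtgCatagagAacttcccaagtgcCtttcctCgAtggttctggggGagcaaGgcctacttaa
Cyp4a32: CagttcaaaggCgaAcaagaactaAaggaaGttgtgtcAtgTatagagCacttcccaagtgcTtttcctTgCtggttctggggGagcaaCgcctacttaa
For the Cyp4a12 pair it is coding bases 664 to 763 in exon 6, at chr4:115326662-115326761 and chr4:115432915-115433014 on the plus strand, where capitals mark all 8 differences.
Cyp4a12a: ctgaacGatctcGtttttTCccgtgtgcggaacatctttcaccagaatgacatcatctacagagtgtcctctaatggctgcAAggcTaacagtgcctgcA
Cyp4a12b: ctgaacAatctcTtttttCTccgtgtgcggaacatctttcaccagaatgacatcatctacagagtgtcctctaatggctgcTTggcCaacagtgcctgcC
The matching 88 bases of Cyp4a14 (exon 2, coding bases 196 to 283, chr4:115494931-115495018 on the minus strand) differ from Cyp4a10 at the 36 bases in capitals, and 5 of the 100 Cyp4a10 bases have no counterpart in Cyp4a14.
Cyp4a14: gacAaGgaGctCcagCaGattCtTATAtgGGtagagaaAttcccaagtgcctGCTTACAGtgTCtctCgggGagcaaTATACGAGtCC
In the first window Cyp4a10 and Cyp4a31 differ at 4 positions, against 8 in the 100 coding bases where that pair differs most, and 58.4% of aligned 100-base coding windows of Cyp4a10 and Cyp4a32 differ at up to 2.

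The libraries held 41364448 to 57583153 counts, and member counts ran from 358 (Cyp4a31, CD fed replicate 3) to 501016 (Cyp4a14, CD fast replicate 3), so the spread between mice, not counting error, set the precision. All 6 genes were among the 15075 tested. Levels are CPM, counts relative to the TMM-scaled library total. All 24 pairs of libraries of the same group differed by more than sampling noise. Defining hepatocyte markers summed to 78570 to 136500 CPM. Markers of the kidney proximal tubule, another site of Cyp4a expression, summed to 0.118 to 2.66 CPM. Of 4 adipocyte markers, Cidea, which lipid-laden hepatocytes also express, reached 45.1 CPM in HFD fast and up to 11.3 CPM in the other groups, and Adipoq, Lep and Plin1 reached 0.976, 0.781 and 0.394 CPM.

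The family as a whole was lowest in CD fed liver and highest in CD fast liver. The 6 genes together took 0.118% ± 0.0142 of all counts in the CD fed libraries, 1.55% ± 0.244 in the CD fast libraries, 0.446% ± 0.182 after HFD in fed mice and 0.818% ± 0.298 after HFD in fasted mice (mean ± SD, n = 4 each). Fasting raised the summed level 13.5-fold on the control diet. On the high-fat diet the fasted level was 1.79 times the fed level, the libraries overlapped, and the exact two-sided permutation test gave p = 0.0857. High-fat diet raised the sum 3.43-fold in fed mice and lowered it 2.19-fold in fasted mice. For these and both diagonal comparisons other than fasting on HFD, the groups did not overlap, with an exact permutation p = 0.0286, the smallest that 4 against 4 libraries allow, and 0.0343 after adjustment over 6 tests.

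**Figure D1:**
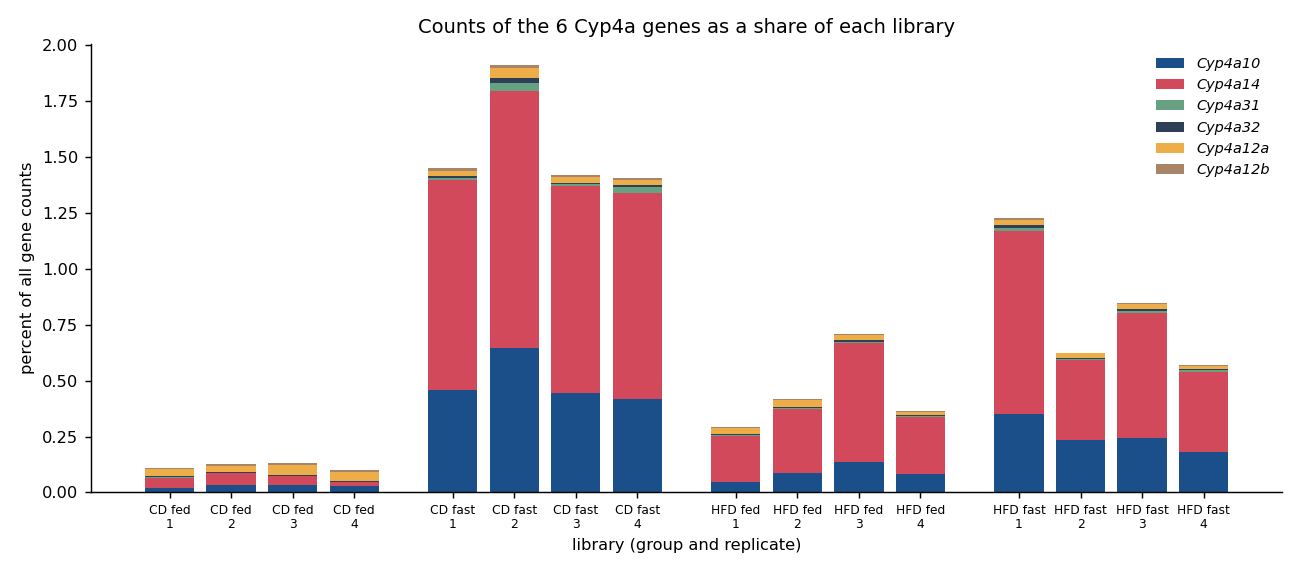
Counts of the 6 Cyp4a genes as a percentage of all gene counts in each of the 16 libraries (bars, stacked by gene, grouped by diet and feeding state). CD fed libraries lie between 0.102% and 0.133%, CD fast between 1.41% and 1.91%, HFD fed between 0.291% and 0.708%, and HFD fast between 0.571% and 1.23%.

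The measured make-up of the family also differed between groups, which is given as a description, since the shares themselves were not tested. In CD fed liver Cyp4a14 took 32.2% ± 11.4 of the Cyp4a counts, Cyp4a12a 30.2% ± 6.43 and Cyp4a10 25.2% ± 4.64. In CD fast liver Cyp4a14 took 64.1% ± 2.57 and Cyp4a12a 1.80% ± 0.393. Cyp4a14 made up 71.3% ± 2.63 in HFD fed and 63.2% ± 4.36 in HFD fast liver, where Cyp4a12a took 5.64% ± 2.78 and 2.58% ± 0.751. Per kilobase of exon, CD fed liver held similar levels of Cyp4a14 (152 ± 59.8 CPM per kb), Cyp4a12a (150 ± 30.3) and Cyp4a10 (144 ± 33.1). Cyp4a12b (37.9 ± 9.69), Cyp4a32 (28.6 ± 11.7) and Cyp4a31 (4.76 ± 2.92) were lower on the same scale. In CD fast liver Cyp4a14 stood at 4004 ± 456 and Cyp4a10 at 2456 ± 525 CPM per kb, while Cyp4a12a was at 125 ± 49.1. The Cyp4a32 model holds 1536 exon bases against 1530 coding bases, so its value rests nearly on coding length. These lengths include windows shared with copies (35.8% of Cyp4a12a, 12.7% of Cyp4a10 and 0% of Cyp4a14). How such reads were counted is not known, so levels compared between genes are uncertain.

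Cyp4a10, an omega-hydroxylase induced by PPARalpha activators, separated all 4 groups. In CD fed liver it measured 207, 351, 358 and 302 CPM in replicates 1 to 4, and in CD fast liver 4689, 6835, 4707 and 4487 CPM. In HFD fed liver it measured 454, 849, 1374 and 779 CPM, and in HFD fast liver 3381, 2330, 2331 and 1590 CPM. The order was CD fed, HFD fed, HFD fast and CD fast, with no overlap between neighbours. Fasting raised Cyp4a10 17.0-fold on the control diet (log2 change 4.09 ± 0.33 SE, adjusted p = 2.12e-06) and 2.79-fold on the high-fat diet (1.48 ± 0.30, adjusted p = 0.00824). High-fat diet raised it 2.84-fold in fed mice (1.5 ± 0.30, adjusted p = 0.00722) and lowered it 2.15-fold in fasted mice (log2 change -1.11 ± 0.29, adjusted p = 0.0327). The last call was lost when CD fast replicate 1 or 2, or any of HFD fast replicates 2, 3 and 4, was omitted, with an adjusted p of up to 0.0977. It was also lost in limma-voom (adjusted p = 0.0516) and in a fit of the fasted groups alone (0.0599).

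**Figure D2:**
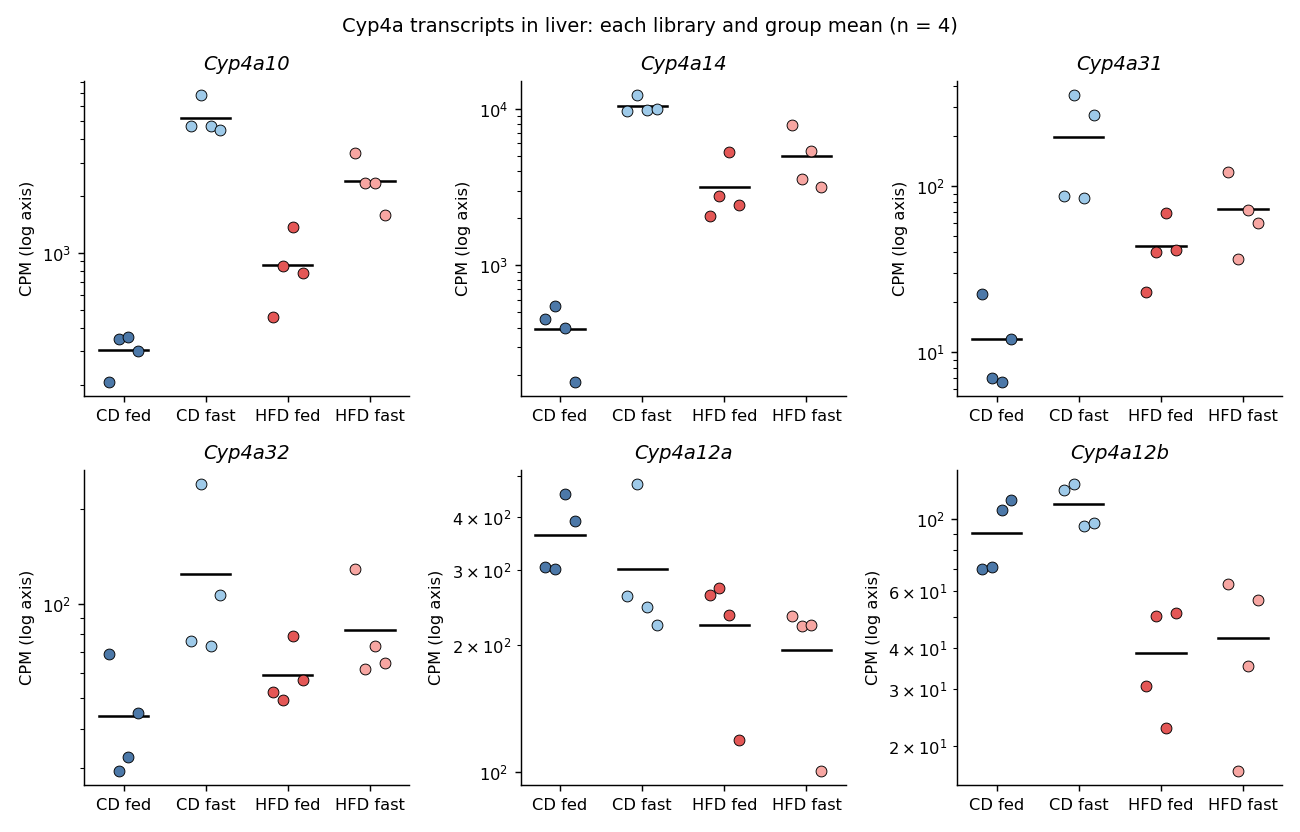
CPM (log axis) of each Cyp4a gene in every library (points, replicates 1 to 4 from left to right) and the group mean (line) for CD fed, CD fast, HFD fed and HFD fast liver. Cyp4a10 and Cyp4a14 rise from 304 and 394 CPM in CD fed to 5180 and 10410 CPM in CD fast on average, while Cyp4a12a and Cyp4a12b stay within 16.8 to 479 CPM.

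Cyp4a14, the other classical PPARalpha-responsive member and the most abundant in CD fast liver, had the widest range. CD fed replicates 1 to 4 measured 452, 546, 398 and 180 CPM, and CD fast replicates 9651, 12180, 9865 and 9954 CPM. HFD fed replicates measured 2064, 2788, 5297 and 2425 CPM, and HFD fast replicates 7818, 3553, 5335 and 3174 CPM. CD fed lay below and CD fast above all others, whereas HFD fed and HFD fast overlapped. Fasting raised Cyp4a14 26.4-fold on the control diet (log2 change 4.72 ± 0.41, adjusted p = 4.22e-06). On the high-fat diet the fasting change was 0.66 on the log2 scale (95% interval -0.09 to 1.41, adjusted p = 0.254). High-fat diet raised it 7.98-fold in fed mice (3.0 ± 0.38, adjusted p = 0.000369). In fasted mice HFD libraries lay below CD libraries without overlap, but the log2 difference of -1.07 (95% interval -1.82 to -0.31) gave an adjusted p of 0.0756, which became 0.0494 without CD fed replicate 4, 0.0370 without HFD fast replicate 1 and 0.0171 in DESeq2.

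Cyp4a31, a close copy of Cyp4a10, was a low-abundance member that followed the same order. It measured 22.3, 6.96, 6.60 and 12 CPM in CD fed and 87.5, 352, 85.3 and 268 CPM in CD fast replicates 1 to 4. HFD fed replicates measured 22.9, 39.8, 69.3 and 41.3 CPM, and HFD fast replicates 121, 36.5, 72.0 and 60.2 CPM. CD fast split into a lower pair (replicates 1 and 3) and a higher pair (replicates 2 and 4), and HFD fast overlapped with both HFD fed and CD fast. Fasting raised Cyp4a31 16.6-fold on the control diet (log2 change 4.05 ± 0.58, adjusted p = 0.000193). On HFD the fasting change was 0.74 (95% interval -0.35 to 1.83, adjusted p = 0.389). High-fat diet raised it 3.62-fold in fed mice (1.86 ± 0.53, adjusted p = 0.0460). That call was lost with the omission of any of 9 libraries, which were CD fed replicates 2, 3 and 4, CD fast replicate 4, HFD fed replicates 2, 3 and 4 and HFD fast replicates 3 and 4 (adjusted p of up to 0.137). The fed call was also lost in a fit with a block for the replicate number (1.96, adjusted p = 0.0694). The HFD difference in fasted mice was -1.45 (95% interval -2.56 to -0.35, adjusted p = 0.0940).

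Cyp4a32, the copy nearest to Cyp4a10 in coding sequence, had the smallest fasting change of these 4 genes on CD. CD fed replicates 1 to 4 measured 69.0, 29.4, 32.6 and 45.0 CPM, and CD fast replicates 75.8, 241, 73.3 and 106 CPM. HFD fed replicates measured 52.4, 49.5, 78.8 and 57.0 CPM, and HFD fast replicates 129, 61.9, 73.3 and 65.0 CPM. Only CD fed and CD fast did not overlap, and CD fast replicate 2 was the highest library for both Cyp4a31 and Cyp4a32. Fasting raised Cyp4a32 2.82-fold on the control diet (log2 change 1.5 ± 0.38, adjusted p = 0.00948), and without CD fast replicate 2 the log2 change was 0.95 (adjusted p = 0.0394). The changes with fasting on HFD (0.47, 95% interval -0.31 to 1.26) and with HFD in fed (0.43, -0.35 to 1.22) and fasted mice (-0.59, -1.38 to 0.19) did not pass the threshold.

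Summed to 1 gene, Cyp4a10, Cyp4a31 and Cyp4a32 rose 15.3-fold with fasting on CD (adjusted p = 1.71e-06) and 2.65-fold on HFD (adjusted p = 0.00735), rose 2.68-fold with HFD in fed mice (adjusted p = 0.00659), and fell by 1.10 on the log2 scale with HFD in fasted mice (adjusted p = 0.0251). Across 16 libraries the log2 levels of Cyp4a31 and Cyp4a32 had a Pearson correlation of 0.92, and 0.89 after subtraction of group means. Their libraries and, in part, their read sequences are shared, so this is a description. Cyp4a10 and Cyp4a14, which share no 100-base window, had 0.93 and 0.63.

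Cyp4a12a, the male-biased member that also makes a vasoactive hydroxylated arachidonic acid, was called for fasting on neither diet. CD fed replicates 1 to 4 measured 304, 301, 453 and 391 CPM, and CD fast replicates 261, 479, 245 and 223 CPM. HFD fed replicates measured 261, 273, 235 and 119 CPM, and HFD fast replicates 233, 222, 223 and 101 CPM. Both HFD groups lay below all CD fed libraries, and replicate 4 was the lowest in each. The fasting changes were -0.26 on CD (95% interval -0.91 to 0.38, adjusted p = 0.560) and -0.19 on HFD (-0.84 to 0.45, adjusted p = 0.732). The HFD differences were -0.71 in fed mice (-1.35 to -0.06, adjusted p = 0.178) and -0.63 in fasted mice (-1.28 to 0.01, adjusted p = 0.202).

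Cyp4a12b, its near-identical copy, was lower on the high-fat diet in both feeding states. CD fed replicates 1 to 4 measured 70.3, 71.2, 107 and 115 CPM, and CD fast replicates 123, 128, 95.2 and 97.0 CPM. HFD fed replicates measured 30.7, 50.4, 22.7 and 51.3 CPM, and HFD fast replicates 63.0, 16.8, 35.3 and 56.4 CPM. The 8 HFD libraries all lay below the 8 CD libraries. High-fat diet lowered Cyp4a12b 2.34-fold in fed mice (log2 change -1.23 ± 0.34, adjusted p = 0.0395) and 2.58-fold in fasted mice (-1.37 ± 0.34, adjusted p = 0.0251). The fed call was lost when any of CD fed replicates 2, 3 and 4, or HFD fed replicate 1 or 3, was omitted (adjusted p of up to 0.116), and the fasted call when this was CD fast replicate 1 or 2 or replicate 3 of HFD fast (up to 0.0741). The fed call was also lost with total count scaling (adjusted p = 0.0566), and the fasted call in a fit of the fasted groups alone (0.0729). Fasting changes were 0.29 on CD (95% interval -0.42 to 1.0) and 0.15 on HFD (-0.57 to 0.86). With Cyp4a12a and Cyp4a12b summed, the log2 difference between diets was -0.80 in fed mice (adjusted p = 0.0583) and -0.80 in fasted mice (adjusted p = 0.0570), and neither passed the threshold.

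**Figure D3:**
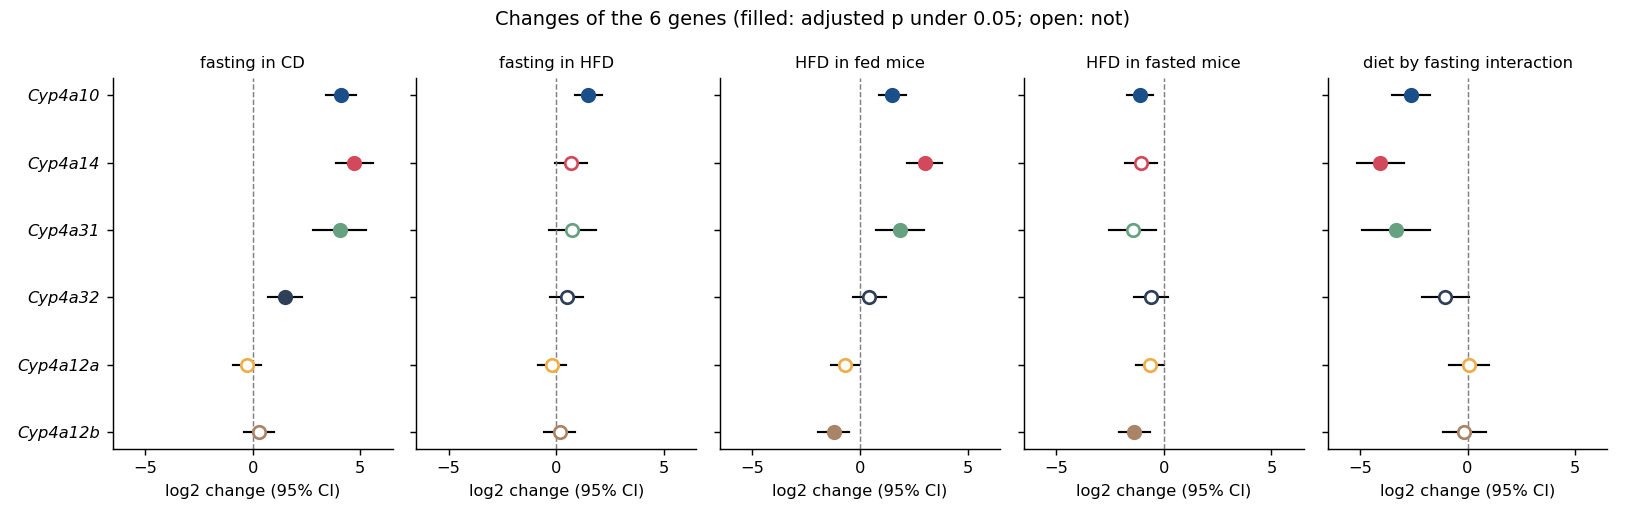
Log2 change with its 95% interval for each Cyp4a gene in 4 comparisons and in the diet by fasting interaction (filled points passed an adjusted p of 0.05 over 15075 genes, open points did not). Fasting on CD moves Cyp4a10, Cyp4a14 and Cyp4a31 by 4.05 to 4.72, while on HFD they move by 0.66 to 1.48.

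Counted over the family, fasting on the control diet raised 4 of 6 genes and lowered 0, where 13.7% of all genes tested were called higher and 11.5% lower. The median log2 change of the 6 was 2.77, against -0.01 over all genes tested. On the high-fat diet fasting raised 1 and lowered 0 (4.78% and 4.07% of all genes), with a median of 0.57 against 0.01. High-fat diet in fed mice raised 3 and lowered 1 (3.28% and 4.22%), with a median of 0.97 against 0.01. In fasted mice it raised 0 and lowered 2 (3.05% and 4.65%), with a median of -1.09 against 0.01.

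The interaction, the fasting change on HFD minus that on CD, tests whether the fasting response differed between diets. It was called negative for 3 genes and positive for 0 (1.36% and 1.23% of all genes tested). The difference was -4.06 ± 0.51 for Cyp4a14 (adjusted p = 0.00287), -2.61 ± 0.42 for Cyp4a10 (adjusted p = 0.00838) and -3.31 ± 0.75 for Cyp4a31 (adjusted p = 0.0302). The Cyp4a31 call was lost with the omission of any of 8 libraries, which were CD fed replicates 2, 3 and 4, CD fast replicates 2 and 4, HFD fed replicate 3 and HFD fast replicates 3 and 4 (adjusted p of up to 0.0683). That Cyp4a31 call was also lost in a fit with a block for the replicate number (-3.46, adjusted p = 0.0575). Cyp4a32 had a difference of -1.03 (95% interval -2.14 to 0.08), Cyp4a12a of 0.07 (-0.84 to 0.99) and Cyp4a12b of -0.14 (-1.15 to 0.87). Summed, Cyp4a10, Cyp4a31 and Cyp4a32 had a difference of -2.53 (adjusted p = 0.00690), and the Cyp4a12 pair one of -0.00043 (adjusted p = 0.999). In these bulk samples, fewer cells of a type and less RNA per cell cannot be told apart. Hepatocyte markers summed to 92260 to 116300 CPM in CD fast and 78570 to 111100 CPM in HFD fast liver. Sums were 105100 to 133900 CPM in CD fed and 111300 to 136500 CPM in HFD fed liver, so HFD fast lay just below HFD fed. Alb held most of the sum, with means of 97260 CPM in HFD fed and 66060 CPM in HFD fast liver (adjusted p = 0.0745). Cyp2e1 alone had a higher mean in HFD fast (10700 against 7670 CPM). Of 6 hepatocyte markers, fasting raised 1 and lowered 0 on CD (13.7% and 11.5% of all genes). On HFD it raised 0 and lowered 1 (4.78% and 4.07%), and high-fat diet in fasted mice moved 0. Of 5 stellate cell markers, fasting on CD lowered 1 and high-fat diet in fasted mice raised 1, and their sum was 204.5 to 264.7 CPM in CD fed, 131.4 to 216.2 CPM in CD fast, 222.4 to 320.2 CPM in HFD fed and 226.3 to 307.4 CPM in HFD fast liver, the last above all CD fast libraries. Of 5 endothelial markers, fasting on CD lowered 2 and high-fat diet in fasted mice raised 2, with sums of 198.1 to 223 CPM in CD fed, 147.3 to 193.6 CPM in CD fast, 186.5 to 204 CPM in HFD fed and 178.8 to 235.9 CPM in HFD fast liver. Of 5 Kupffer cell markers, fasting on CD lowered 2 and high-fat diet in fasted mice moved 0, with sums of 209.2 to 356.8, 139 to 216.5, 216.3 to 304.1 and 179.2 to 321.9 CPM in the same 4 groups. The erythrocyte marker Alas2 fell with fasting on CD (log2 change -1.09, adjusted p = 1.2e-05) and rose with high-fat diet in fasted mice (0.39, adjusted p = 0.0365). Its interaction was also called (0.71, adjusted p = 0.0248), and no globin marker was called in these comparisons. Of all genes tested, 11.5% were called lower with fasting on CD and 3.05% higher with high-fat diet in fasted mice. The part of cell composition in the Cyp4a differences was not tested.

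Across the diagonals, HFD fed liver had 0 genes higher and 4 lower than CD fast liver (9.35% and 12.1% of all genes). These were Cyp4a10 (6.0-fold lower, adjusted p = 0.000165), Cyp4a31 (4.58-fold, adjusted p = 0.00963), Cyp4a14 (3.31-fold, adjusted p = 0.00423) and Cyp4a12b (2.86-fold, adjusted p = 0.00677). The Cyp4a12b call was lost when it was summed with Cyp4a12a (log2 difference -0.66 in place of -1.51, adjusted p = 0.0637), while Cyp4a10, Cyp4a31 and Cyp4a32 together differed by -2.51 (adjusted p = 0.000119). HFD fast liver had 3 genes higher and 2 lower than CD fed liver (11.3% and 11.6%). Cyp4a14 was 12.6-fold (adjusted p = 2.15e-05), Cyp4a10 7.91-fold (adjusted p = 2.06e-05) and Cyp4a31 6.05-fold higher (adjusted p = 0.00341). Cyp4a12b was 2.11-fold (adjusted p = 0.0316) and Cyp4a12a 1.86-fold lower (adjusted p = 0.0452). The Cyp4a12 pair summed differed by -0.93 (adjusted p = 0.0127), and the sum of the other copies by 2.83 (adjusted p = 1.82e-05). The Cyp4a12a call was lost in 12 of 16 fits that left out a library (any CD fed or HFD fast replicate, CD fast replicate 1, or HFD fed replicate 1, 2 or 3; adjusted p of up to 0.117), and the Cyp4a12b call when CD fed replicate 3 or 4, or one of HFD fast replicates 2 and 3, was omitted (up to 0.0832). With total count scaling both calls were lost (adjusted p = 0.0566 and 0.0608), as was that of Cyp4a12b in a fit of these groups alone (0.0604). Cyp4a32 differed by -1.06 (adjusted p = 0.0530) and 0.90 (adjusted p = 0.0913). Its lower level in HFD fed passed the threshold in DESeq2 (adjusted p = 0.0403) and on omission of CD fed replicate 1, HFD fast replicate 1 or either of CD fast replicates 1 and 3 (down to 0.0324), and its higher level in HFD fast without CD fed replicate 1 or CD fast replicate 2 (down to 0.0307).

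Ratios between members within a library do not depend on scaling. Cyp4a14 counts were 136% ± 67.6 of Cyp4a10 counts in CD fed liver, 204% ± 18.4 in CD fast liver, 370% ± 64.9 in HFD fed liver and 203% ± 36.7 in HFD fast liver (SD, n = 4 each). The 4 HFD fed libraries, at 455%, 328%, 386% and 311%, lay above the 12 others, which reached 231%. Cyp4a32 counts were 16.4% ± 11.7 of Cyp4a10 counts in fed and 2.27% ± 0.916 in fasted mice on CD, and 7.61% ± 2.73 and 3.43% ± 0.648 on HFD, with no overlap between feeding states on either diet. Cyp4a12a counts were 113% ± 73.9 of Cyp4a14 counts in CD fed liver and 2.84% ± 0.752 in CD fast liver. Cyp4a12b stood at 23.1% to 29.3% of Cyp4a12a in CD fed but at 7.60% to 56.0% in HFD fast liver. Of 30 exact permutation tests over 5 ratios and 6 comparisons, none passed after adjustment (smallest adjusted p 0.0714, from the smallest exact p allowed, 0.0286), and 12 of the 30 had an unadjusted p under 0.05.

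**Figure D4:**
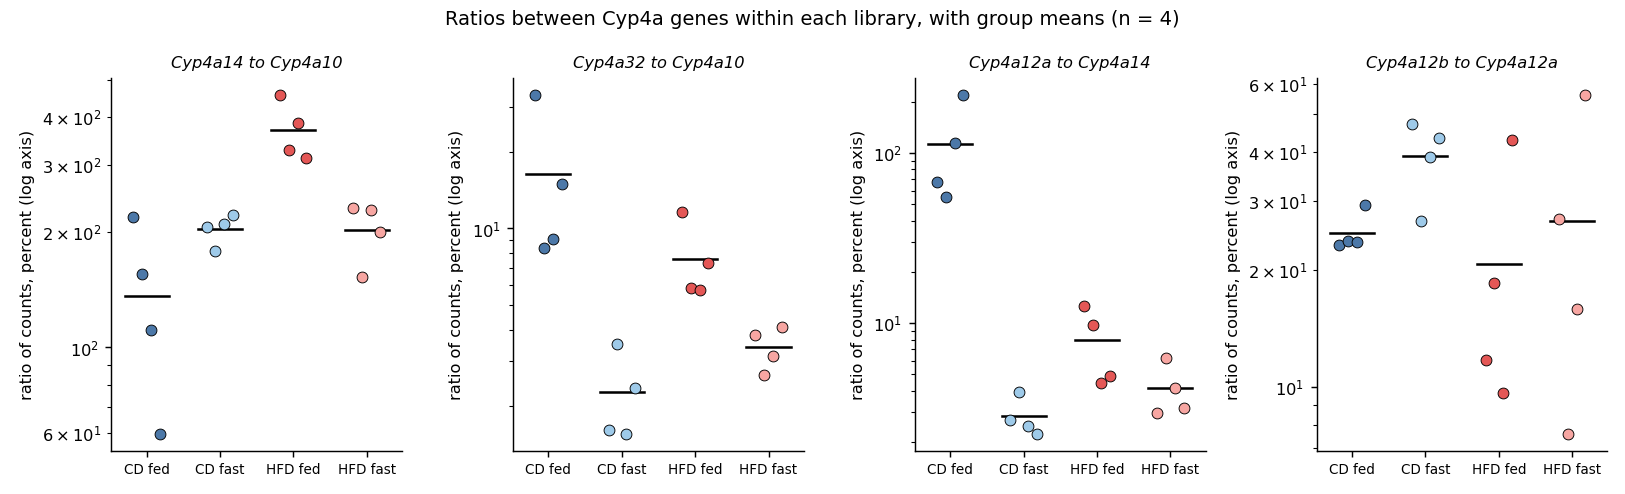
Ratio of the counts of a pair of Cyp4a genes within each library, in percent on a log axis (points, replicates 1 to 4 from left to right; lines, group means) for CD fed, CD fast, HFD fed and HFD fast liver. The Cyp4a14 to Cyp4a10 ratio is highest in the 4 HFD fed libraries (311% to 455%), and the Cyp4a12b to Cyp4a12a ratio spreads most in HFD fast liver (7.60% to 56.0%).

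The 9 tested genes of 14 listed from the rest of the Cyp4 family, many of which hydroxylate other lipids, are given for comparison. Fasting on CD raised 2 and lowered 2 of the 9, beside 13.7% and 11.5% of all genes tested. Cyp4f14, an omega-hydroxylase of leukotrienes and vitamin side chains, fell by 2.06 with fasting on CD on the log2 scale (adjusted p = 2.82e-05) and fell by 0.94 on HFD (adjusted p = 0.0196). Its mean level was 297 ± 23.5 CPM in CD fed and 71.3 ± 20.9 CPM in CD fast liver. Cyp4f15 rose on CD by 0.49 (adjusted p = 0.00690) and Cyp4b1, the neighbour of Cyp4a32, fell by 0.37 (adjusted p = 0.00511). On HFD fasting raised 0 and lowered 1 (4.78% and 4.07% of all genes). High-fat diet moved 0 in fed mice (3.28% and 4.22% of all genes higher and lower) and 0 in fasted mice (3.05% and 4.65%).

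The partners of omega-oxidation, 19 genes for electron supply, the later oxidation steps and peroxisomal shortening, were all tested. Fasting raised 13 and lowered 2 on CD (median log2 change 1.09, with 13.7% and 11.5% of all genes called) and raised 5 and lowered 0 on HFD (median 0.45, with 4.78% and 4.07%). Ehhadh, the peroxisomal bifunctional enzyme that shortens dicarboxylic acids, rose on CD by 3.15 (adjusted p = 1.62e-05), from 409 ± 53.2 to 3634 ± 891 CPM. Aldh3a2, the fatty aldehyde dehydrogenase, rose by 1.61 on CD (adjusted p = 1.29e-05) and by 0.80 on HFD (adjusted p = 0.00761). Cyb5r3, the cytochrome b5 reductase, fell by 1.5 on CD (adjusted p = 5.78e-06). With HFD in fed mice 2 rose, Aldh3a2 (1.0, adjusted p = 0.00187) and Por, the reductase that feeds P450 enzymes (1.3, adjusted p = 0.00889), and 1 fell, Cyb5r3 (log2 change -0.87, adjusted p = 0.00147), beside 3.28% and 4.22% of all genes. In fasted mice 0 rose and 1 fell, Ehhadh (-1.22, adjusted p = 0.0250), beside 3.05% and 4.65% of all genes. The interaction was negative for Ehhadh (-2.24, adjusted p = 0.0165) and Acot3 (-3.07, adjusted p = 0.0412) and positive for Cyb5r3 (1.12, adjusted p = 0.0107). It was called negative for 1.36% and positive for 1.23% of all genes.

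Of 25 other genes listed as PPARalpha targets, fasting raised 19 and lowered 0 on CD (median 1.10) and raised 12 and lowered 0 on HFD (median 0.45), and high-fat diet raised 11 and lowered 0 in fed mice (median 0.46). The shares of all genes called higher and lower were 13.7% and 11.5%, 4.78% and 4.07%, and 3.28% and 4.22% in these 3 comparisons. Hadhb, a subunit of the mitochondrial trifunctional protein, rose by 1.16 on CD (adjusted p = 4.22e-06) and by 0.46 on HFD (adjusted p = 0.0114). Acadl, a mitochondrial acyl-CoA dehydrogenase, rose by 1.02 with fasting on CD (adjusted p = 5.78e-06) and by 0.54 with HFD in fed mice (adjusted p = 0.00293). In fasted mice 0 were called in either direction (median -0.22), beside 3.05% higher and 4.65% lower among all genes. The smallest adjusted p there was that of Hadha (-0.34, adjusted p = 0.0646). The interaction was negative for 6 and positive for 0 (1.36% and 1.23% of all genes), among them Acadl (-0.75, adjusted p = 0.0114), Acot1 (-2.58, adjusted p = 0.0142) and Hadhb (-0.70, adjusted p = 0.0205).

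**Figure D5:**
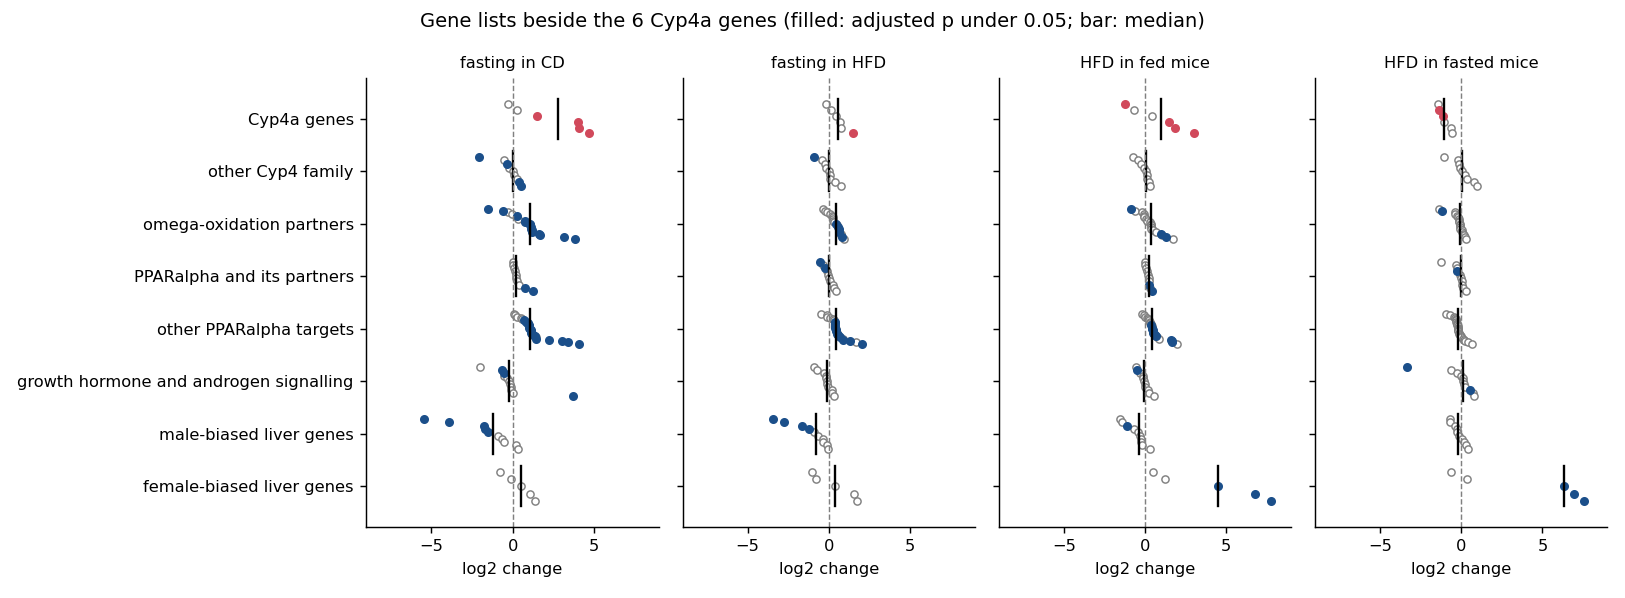
Log2 change of every tested gene of 7 lists and of the 6 Cyp4a genes in 4 comparisons (filled points passed an adjusted p of 0.05 over all genes tested, open points did not; bars are medians). With fasting on CD the medians are 2.77 for Cyp4a, 1.09 for omega-oxidation partners, 1.10 for other PPARalpha targets and -1.21 for male-biased genes.

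Of PPARalpha and 9 partners, fasting raised 2 and lowered 0 on CD (13.7% and 11.5% of all genes) and raised 0 and lowered 2 on HFD (4.78% and 4.07%). Ppara itself measured 203 ± 16.5 and 261 ± 27.4 CPM in CD fed and CD fast liver and 211 ± 40.7 and 280 ± 45.2 CPM in HFD fed and HFD fast liver, and its change with fasting passed the threshold on neither diet (0.37, adjusted p = 0.0680 on CD, and 0.41, adjusted p = 0.0786 on HFD), though HFD fast exceeded CD fed by 0.47 (adjusted p = 0.0257). Creb3l3, a fasting-induced membrane-bound transcription factor, rose on CD by 0.79 (adjusted p = 0.000603), as did the coactivator Ppargc1a by 1.24 (adjusted p = 0.0287). The Ppargc1a libraries ran from 10.2 to 48.5 CPM in CD fast liver and so overlapped with CD fed (6.31 to 15.7 CPM). Hnf4a (log2 change -0.55, adjusted p = 0.00601) and Med1 (-0.26, adjusted p = 0.0349) fell with fasting on HFD. High-fat diet raised 2 and lowered 0 in fed mice, among them Med1 (0.26, adjusted p = 0.0355), where 3.28% and 4.22% of all genes were called. In fasted mice it raised 0 and lowered 1, Rxrb (-0.26, adjusted p = 0.0270), where the shares were 3.05% and 4.65%.

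Lists related to the sex-biased control of Cyp4a12a were read beside it. Of 11 growth hormone and androgen signalling genes, fasting raised 1 and lowered 2 on CD (13.7% and 11.5% of all genes). On HFD it moved 0 (4.78% and 4.07% of all genes). Stat5b, the growth hormone effector, fell with fasting on CD (log2 change -0.67, adjusted p = 0.00160) and with HFD in fed mice (-0.51, adjusted p = 0.0242), and Ghr, the growth hormone receptor, fell with fasting on CD (-0.55, adjusted p = 0.0267). Cux2, a repressor of male-biased genes, rose on CD with fasting, from 0.360 ± 0.0976 to 4.82 ± 4.25 CPM (adjusted p = 0.00177). The CD fast libraries ran from 0.354 to 9.82 CPM and so overlapped with CD fed (0.221 to 0.447 CPM) and with HFD fast (0.162 to 0.629 CPM). In fasted mice high-fat diet raised 1, Stat5a (0.54, adjusted p = 0.0405), and lowered 1, Cux2 (-3.33, adjusted p = 0.0128), beside 3.05% and 4.65% of all genes. Of 10 male-biased liver genes tested of 11 listed, fasting lowered 5 on CD (median -1.21) and 4 on HFD (median -0.77), and raised 0 on either diet, where 11.5% and 4.07% of all genes were called lower. High-fat diet lowered 1 in fed mice, Nudt7 (-1.10, adjusted p = 0.0194), a peroxisomal CoA hydrolase, and moved 0 in fasted mice, where 4.22% and 4.65% of all genes were called lower. Hsd3b5, a male-specific steroid reductase, fell with fasting from 221 ± 50.3 to 5.12 ± 2.89 CPM on CD (adjusted p = 0.00105), whereas Cyp4a12a went from 362 ± 73.4 to 302 ± 119 CPM and was not called. Of 5 female-biased genes tested of 10 listed, high-fat diet raised 3 and lowered 0 in fed mice and likewise in fasted mice (3.28% and 3.05% of all genes higher). The 3 were Cyp2b9, Cyp2b13 and Cyp2a4, whose reads may be shared with close copies. Fasting moved 0 of the 5 on CD (13.7% and 11.5% of all genes higher and lower) and 0 on HFD (4.78% and 4.07%). Cyp2b9 measured 0.558 ± 0.412 CPM in CD fed and 61.9 ± 67.9 CPM in HFD fed liver, so the mice of that group differed widely.

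Genes whose log2 CPM was most like that of a member were sought among 10998 genes over the 16 libraries, as a description, since all share the same libraries and groups. For Cyp4a14 the nearest was Acadl (r = 0.99, and 0.93 after subtraction of group means), followed by Hnrnpd (0.97), Hsd17b11 (0.96), Ech1 (0.95) and Acot1 (0.95). After subtraction these last genes had lower values, of 0.64, 0.47, 0.53 and 0.70 in the same order. For Cyp4a10 the nearest were Hsd17b11 (0.98, and 0.86 after subtraction of group means), Hadha (0.98, and 0.75), Decr1 (0.98, and 0.76), Retsat (0.97, and 0.82) and Acaa1a (0.97, and 0.81). For Cyp4a12a the correlations were lower, with Smg8 (0.89, and 0.92 after subtraction), Cadm4 (0.87, and 0.82), Ndufv3 (0.85, and 0.73) and Vkorc1 (0.84, and 0.82). Cyp4a12a and its copy Cyp4a12b had 0.41, and -0.14 after subtraction of group means.

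Among the promoters given for GRCm38.p6 in RefSeq, 1 of the 6 genes, Cyp4a32, was present (chr4:115600688-115600987, plus strand, 250 bases before to 50 after the start). Of the motifs AGGTCA (the core of nuclear receptor elements), TTCNNNGAA (a STAT element) and TATAAA, searched on both strands, TATAAA had 1 match, on the minus strand, and the others had no match in this window. These motifs occur in 16.3%, 8.30% and 13.6% of 32851 such promoters, and a match or its absence is a description.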

How the data were processed

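Liver RNA of 16 mice, 4 per group, was measured by RNA-seq. The authors selected polyadenylated RNA, prepared NEBNext Ultra II libraries, sequenced 100-base paired ends, aligned reads to GRCm38 with TopHat2 2.0.11 in first-strand mode and deposited raw counts per Ensembl gene from featureCounts. The annotation release, and the strand and multi-mapping settings of the counting step, are not given in the sources used here, so reads shared by near-identical copies may be lost or split. Libraries were grouped by their labels, with each mouse taken as 1 replicate.

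Genes passing filterByExpr (15075 of 46078) were scaled by TMM and fitted in edgeR 4.0.16 (R 4.3.3) with 1 coefficient per group. Quasi-likelihood tests covered 6 pairwise comparisons and the interaction, with Benjamini-Hochberg adjustment over all genes tested within each comparison and a threshold of 0.05. Unless another tool is named, adjusted p values are from this test, and 95% intervals are from its standard errors. Summed levels and ratios (0.5 counts added) were compared by exact two-sided permutation in SciPy 1.17.1. Sequences, positions and exon lengths are from GENCODE for GRCm38. Reads carry no molecular identifiers, so counting precision covers counting error only, and 3 counts corresponded to 0.0536 to 0.0767 CPM.

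All 6 members are named. In each list and comparison described, up to 3 genes with the smallest p among those called are named (or the 1 with the smallest p where none was), with the 5 genes most correlated with Cyp4a10, Cyp4a14 and Cyp4a12a (mean of 100 counts or more) and annotated neighbours. Some genes that this rule names are not reported here. Ppara is also named for fasting, chosen after its values were seen. The lists were other Cyp4 family, omega-oxidation partners, PPARalpha and its partners, other PPARalpha targets, growth hormone and androgen signalling, male-biased and female-biased liver genes. The members and lists were chosen with earlier results of these data known. Alternatives were DESeq2 1.42.0, limma-voom (limma 3.58.1), 3 other scalings, 2 other filters, 2 stricter thresholds, other added counts, fits restricted to the groups of a comparison, a block for the replicate number, summing of close copies and omission of each library in turn. The scripts were tested on simulated data.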

Additional observations from a re-analysis of the deposited data

Results flagged for a closer look

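Of 24 sets of 4 libraries (6 genes in 4 groups), 3 held a library far from the other 3 by Dixon's ratio, the gap to the nearest library divided by the range of the group, above the 95% critical value. By chance about 1 in 20 groups would be marked. CD fast replicate 2 was the highest library of its group for Cyp4a10 (6835 CPM, ratio 0.885) and for Cyp4a14 (12180 CPM, ratio 0.879). The same library was also the highest of its group for Cyp4a12a, Cyp4a12b, Cyp4a31 and Cyp4a32, and the shallowest of all 16 (41364448 counts). HFD fast replicate 4 was the lowest of its group for Cyp4a12a (101 CPM, ratio 0.940). That library had the highest TMM factor of the 16, 1.13 against 0.929 to 1.05 in the others, and the relation was not tested. Without it the Cyp4a12a difference between diets in fasted mice was not called either.

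The fasting response differed between diets, by the interaction term of edgeR, for Cyp4a14 (-4.06 on the log2 scale), Cyp4a31 (-3.31) and Cyp4a10 (-2.61). In CD mice all fasted libraries lay above all fed libraries for each of the 3 genes. On HFD this held for Cyp4a10, while the libraries overlapped for Cyp4a14 and Cyp4a31.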

How the results depend on the processing

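Of 23 calls over members and comparisons, 15 held under all settings and without each library, and 8 were lost somewhere. Without each library in turn, the number of members called ranged from 4 to 4 for fasting on CD, 1 to 1 for fasting on HFD, 2 to 4 for HFD in fed mice, 0 to 3 for HFD in fasted mice, 4 to 5 and 3 to 6 for HFD fed against CD fast and HFD fast against CD fed, and 2 to 3 for the interaction. For HFD in fasted mice the count was 1 in limma-voom, and 0 in the fit of only the groups compared and at an adjusted p under 0.01. HFD fast against CD fed gave 3 with total count scaling and 3 under 0.01, and HFD in fed mice gave 2 under 0.01. A stricter threshold calls fewer by construction, and for the other settings the cause was not tested. With total counts the median of all genes moved by 0.159 on the log2 scale for HFD in fasted mice, 0.112 for HFD fed against CD fast and 0.118 for HFD fast against CD fed, and the share of higher among all calls rose from 39.6% to 88.1%, 43.6% to 72.4% and 49.4% to 74.0%. For HFD in fed mice, fasting on HFD and the interaction that share rose from 43.8% to 68.8%, 54.0% to 67.6% and 47.4% to 69.5%, and for fasting on CD it fell from 54.4% to 44.3%. With upper quartile scaling it was 51.2% for HFD in fasted mice and 60.1% for HFD fast against CD fed. No member's called direction changed under any scaling.

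Small, uncalled changes of the Cyp4a12 pair changed sign. The Cyp4a12a interaction ranged from -0.13 to 0.39 over omitted libraries and the Cyp4a12b interaction from -0.39 to 0.11. Fasting on HFD ranged from -0.40 to 0.0246 for Cyp4a12a and from -0.10 to 0.40 for Cyp4a12b. With close copies summed, the Cyp4a12 change was -0.135 with fasting on CD, -0.135 on HFD and -0.00043 for the interaction, and 3 genes take the place of 6, so no count of members is given there.

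The labels tie no replicate number to a shared source, and the numbers were not taken to pair the mice. Same-numbered libraries had correlations of -0.243 to 0.662 over 24 pairs, 8 of them over 0.1. In 9 of the 24 the match to the own number was the best, including all 4 of CD fed with CD fast (0.0523 to 0.112). The highest, 0.662, was that of HFD fed with HFD fast replicate 4, against a mean of -0.301 with the other numbers. These 2 libraries also had the lowest Cyp4a12a (119 and 101 CPM) and highest Cyp4a12b to Cyp4a12a ratios (43.0% and 56.0%) of their groups. Such matches are a hint from the data and not from the design. With the replicate block, Cyp4a31 lost its call for HFD in fed mice (1.96, adjusted p = 0.0694) and for the interaction (-3.46, adjusted p = 0.0575), and the other member calls held. For the summed level the paired exact permutation allows no p under 0.125, and gave 0.125 in all 6 comparisons. Its log2 differences were 3.75 for fasting on CD, 0.843 for fasting on HFD, 1.78 and -1.13 for HFD in fed and fasted mice, -1.98 for HFD fed against CD fast and 2.62 for HFD fast against CD fed.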
